A study of Mus musculus with 4 samples.

Results

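The regions described here are the stretches of the mouse genome bound by PPARγ in both chromatin libraries whose centre lay more than 1 kb and at most 3 kb from the nearest transcription start site (TSS). Peaks of the 2 libraries that overlapped by at least 1 bp were merged, merged regions with peaks of both libraries were kept, and the distance was taken to the nearest TSS of any curated RefSeq transcript in mm10. This gave 2697 of 20233 regions, or 13.3% (95% Wilson interval 12.9 to 13.8%). The other regions were 5121 centred at most 1 kb from a TSS, called promoter regions below, and 12415 centred more than 3 kb away, called distal regions. The study used alveolar macrophages (AMs) from the bronchoalveolar lavage of WT mice (C57BL/6J, 9 wk old), sorted by flow cytometry. PPARγ binding was profiled by HT-ChIPmentation, in which sequencing adapters are inserted by a transposase into chromatin still held on the immunoprecipitation beads. The 2 ChIP libraries, labelled replicates 1 and 2 and called library 1 and library 2, form a single group of WT cells, so no condition is compared. The series also holds 2 input libraries, which are not analysed here.

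PPARγ is a nuclear receptor that is activated by fatty acids and their derivatives and that binds DNA together with RXR. In AMs, the macrophages that live in the airspace and remove surfactant, it is known for the lipid-handling program that follows GM-CSF signaling. The pair recognizes direct repeats of a hexamer, and in macrophages such receptors are commonly found beside PU.1 and C/EBP factors at promoters and at enhancers. The sequence just beyond a promoter, often the start of the first intron, can hold enhancers of the same gene.

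Library 1 has 83787 peaks and library 2 has 28535, with the authors' median fold enrichment over input at 4.44 and 5.07. The lists carry no read counts, and the sequencing depth that the study tabulates elsewhere did not enter any value below. Nothing states that the libraries came from separate animals, and regions of the same libraries are not replicates, so intervals and p-values below measure the spread over regions or genes only. Against the label, all 12 AM marker genes (Siglecf, Mrc1, Car4, Chil3, Pparg and others) were the nearest gene of at least 1 region, and 10 of them of a region 1 to 3 kb from a TSS, the exceptions being Itgax and Marco. Among all protein-coding genes, 29.6% had a region at any distance and 8.91% had one 1 to 3 kb from a TSS. Of the markers of other lavage cells, 0 of 22 lung epithelium and 1 of 22 lymphocyte genes (Ms4a1) had a region 1 to 3 kb from a TSS. So had 2 of 20 granulocyte genes (S100a8 and Cxcr2). At any distance, 3 of 22 lung epithelium, 3 of 22 lymphocyte and 6 of 20 granulocyte genes had a region. Granulocyte genes thus had regions about as often as all protein-coding genes, both at any distance and at 1 to 3 kb. A peak is binding and not expression, so this is a check of the label by binding only.

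The sequences below show what lay under the summits of these regions, as 50 bases on each side of the summit of the strongest library 1 peak, on the plus strand of mm10 (RefSeq GRCm38.p6), with the motif in capitals. For each of 5 motifs, 1 or 2 of the strongest regions with a match in that window and outside exons are given, so they are examples chosen for their motif. The first pair holds a DR1, the PPARγ and RXR element of 2 hexamers AGGTCA or GGGTCA in tandem with a spacer of 1 base, here with 1 mismatch. The summit at chr5:124475347-124475447 lay 2838 bp downstream of the Rilpl2 TSS and that at chr15:80673824-80673924 lay 2027 bp downstream of the Fam83f TSS, each in the first intron.
Rilpl2: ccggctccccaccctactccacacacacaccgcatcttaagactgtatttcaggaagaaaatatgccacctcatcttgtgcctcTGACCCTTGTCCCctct
Fam83f: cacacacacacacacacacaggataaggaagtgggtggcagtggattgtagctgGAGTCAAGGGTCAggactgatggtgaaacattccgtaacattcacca

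The second pair holds GAGGAAGT, a form of the site of PU.1, the ETS factor that marks macrophage enhancers. The summit at chr11:115189468-115189568 lay 1662 bp upstream of the Nat9 TSS, inside an intron of Tmem104, and that at chr16:30390106-30390206 lay 1626 bp upstream of the Atp13a3 TSS in intergenic sequence.
Nat9: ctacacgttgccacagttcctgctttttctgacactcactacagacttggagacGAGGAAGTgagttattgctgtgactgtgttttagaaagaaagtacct
Atp13a3: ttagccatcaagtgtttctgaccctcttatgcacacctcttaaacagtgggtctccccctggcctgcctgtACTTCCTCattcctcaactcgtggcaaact

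The next pair holds TTGCNNAA, a form of the site of C/EBP factors. It was found at chr5:21189059-21189159, in the first intron of Gsap and 2842 bp downstream of its TSS, and at chr1:53851757-53851857, in an intron of Hecw2 and 2383 bp downstream of the TSS of the microRNA Mir7681.
Gsap: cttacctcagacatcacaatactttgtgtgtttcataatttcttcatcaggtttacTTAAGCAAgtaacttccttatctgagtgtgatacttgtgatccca
Mir7681: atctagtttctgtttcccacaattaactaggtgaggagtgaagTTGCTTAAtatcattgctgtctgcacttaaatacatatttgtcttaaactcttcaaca

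The AP-1 motif TGANTCA, the site of FOS and JUN dimers, lay at chr3:107034996-107035096, 1116 bp upstream of the TSS of Kcna3. The region spans that TSS, so that its summit lay upstream of it and its centre downstream.
Kcna3: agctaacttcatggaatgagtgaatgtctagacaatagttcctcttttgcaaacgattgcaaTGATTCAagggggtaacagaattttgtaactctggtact

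The KLF/SP motif GGGCGGG, a feature of CpG-rich promoters, was found at chr11:75460614-75460714, 875 bp upstream of the TSS of Mir22hg.
Mir22hg: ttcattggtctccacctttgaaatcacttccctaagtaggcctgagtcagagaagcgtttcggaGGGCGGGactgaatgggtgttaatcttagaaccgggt

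Regions 1 to 3 kb from a TSS lay mostly inside the gene. Of the 2697 regions, 1778 were downstream of the nearest TSS and 919 upstream, a downstream share of 65.9% (64.1 to 67.7%), whereas 52.6% of the genome at that distance is downstream. Per megabase of genome at that distance there were 34.4 regions downstream and 19.7 upstream. Promoter regions had the opposite balance, with 40.2% downstream, or 73.9 per megabase against 117.9 upstream. Among distal regions 59.0% were downstream, with 5.33 per megabase against 4.60 upstream.

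The density fell steeply on the downstream side. It was 64.6 regions per megabase between 1000 and 1250 bp downstream and 21.1 between 2750 and 3000 bp. Upstream it fell from 30.6 between 1000 and 1250 bp to 18.9 between 1500 and 1750 bp, and then stayed between 14.6 and 17.8 out to 3 kb. Just beyond 3 kb, between 3000 and 3250 bp, it was 18.2 downstream and 14.2 upstream. The downstream side therefore joined a shoulder of promoter regions that peaked at 75.3 per megabase between 750 and 1000 bp, past a low of 54.0 between 250 and 500 bp. The peaks of each library taken alone were also denser downstream, at 215 against 146 per megabase between 1000 and 1250 bp in library 1 and 84.7 against 47.3 in library 2.

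**Figure D1:**
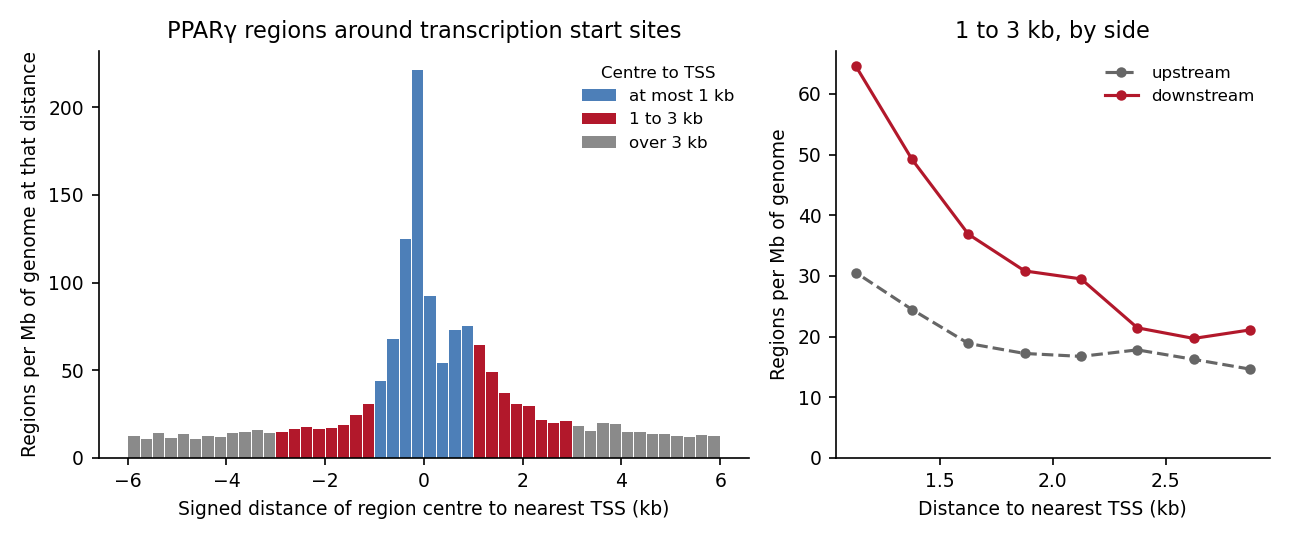
Density of PPARγ regions found in both libraries by signed distance of their centre to the nearest TSS, in bins of 250 bp, as regions per megabase of genome at that distance (left), and the same for the 1 to 3 kb range with the upstream and downstream sides overlaid (right). The downstream side stands above the upstream side throughout the range, from 64.6 against 30.6 at its inner end to 21.1 against 14.6 at its outer end.

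By the annotation at the region centre, 1449 of the 2697 regions lay in a first intron (53.7%, 51.8 to 55.6%), 774 in intergenic sequence (28.7%) and 326 in a later intron (12.1%). A first intron held 30.7% of promoter regions and 23.9% of distal regions. Exons were rare as centres, with 67 regions in a 3′ UTR, 49 in a coding exon, 24 in a noncoding exon and 8 in a 5′ UTR. Downstream regions were in a first intron in 74.1% of cases (1318 of 1778) and upstream regions were intergenic in 77.3% (710 of 919). The upstream regions also included 131 in a first intron, which were upstream of an internal TSS of the same gene or lay in a neighboring gene. The regions clustered, since 1730 (64.1%) had another region within 1 kb. That was 16.8 percentage points more than promoter regions (47.3%, interval of the difference 14.6 to 19.1) and 18.9 points more than distal regions (45.2%, 16.9 to 20.9). With library 1 peaks alone the difference from promoter regions turned to −2.02 points.

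The fold enrichment, the ratio to input that the authors give for each peak, had a median of 6.22 in library 1 (quartiles 4.74 and 8.59) and 5.35 in library 2 (4.52 and 6.47) over the 2697 regions. Promoter regions had medians of 7.11 and 5.35 and distal regions 6.52 and 5.35. The libraries ranked the regions alike to a degree that was close in all classes, with Spearman's rho of 0.58 for the 2697 regions, 0.55 for promoter regions and 0.54 for distal regions. These are descriptions over regions that share both libraries. To rank regions by both libraries, each region was given the lower of its percentiles in the 2 libraries, called its strength. Strength above the median of all regions was held by 44.5% (1200 of 2697), against 55.1% of promoter regions and 48.2% of distal regions. The differences were −10.6 percentage points (−12.9 to −8.29) and −3.67 points (−5.74 to −1.60). Among regions enriched 5-fold or more by each library, the first difference was −0.18 points (−3.40 to 3.05), and in library 1 alone the second was 0.47 points (−0.52 to 1.46).

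Sharing between the libraries gave the same order at the promoter end. Of the 11514 library 1 peaks centred 1 to 3 kb from a TSS, 27.1% overlapped a library 2 peak, against 34.4% of promoter peaks and 24.7% of distal peaks. These differences were −7.31 points (−8.40 to −6.22) and 2.37 points (1.49 to 3.26). Neither interval left out 0 among peaks with a fold enrichment of at least 5, at −0.35 points (−2.19 to 1.502) and 1.28 points (−0.39 to 2.97). Of the 4078 library 2 peaks at this distance, 79.8% overlapped a library 1 peak (78.5 to 81.0%), against 92.0% of promoter peaks and 80.5% of distal peaks. The summits of the strongest peak of each library lay within 100 bp of each other in 49.4% of the regions, with a median gap of 103 bp.

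**Figure D2:**
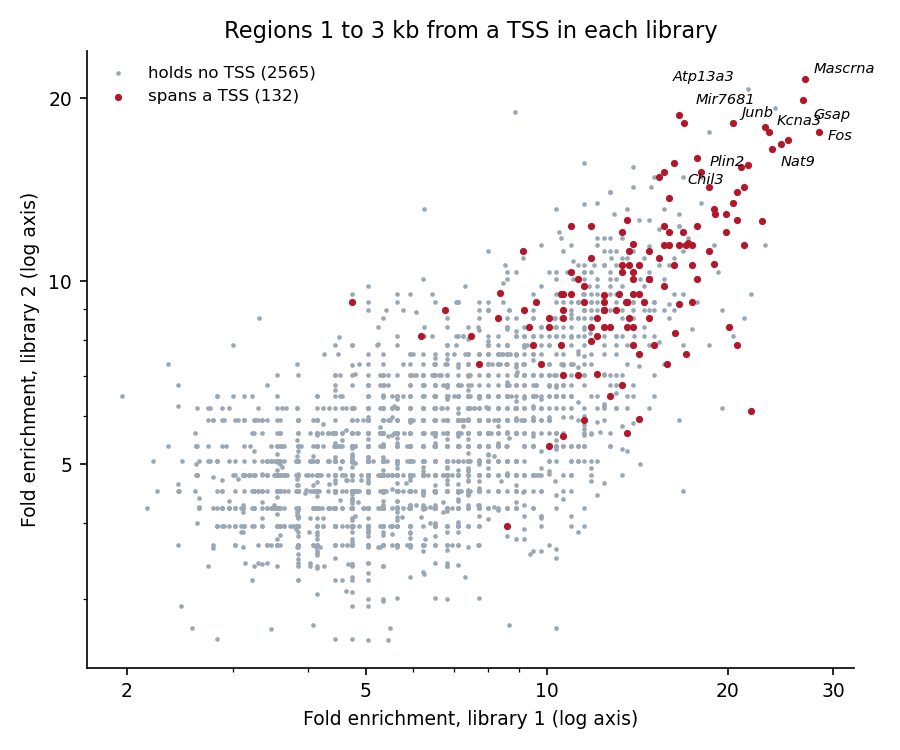
Fold enrichment over input in library 1 (x, log axis) and library 2 (y, log axis) of the 2697 regions 1 to 3 kb from a TSS, 1 point per region, with the 132 regions that span a TSS in red. The red points fill the upper right corner, with medians of 13.9 and 9.82, and the grey points center on 5.92 and 5.07.

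Most of the strongest of these regions were broad and ran over a TSS. In all, 132 of 2697 regions (4.89%, 4.14 to 5.78%) contained a TSS, which at this distance of the centre is possible only for regions of more than 2 kb. They had a median width of 4269 bp and a median fold enrichment of 13.9 in library 1 and 9.82 in library 2, whereas the other 2565 had a median width of 584 bp and medians of 5.92 and 5.07. A region takes the value of its best peak, and wide regions merge more peaks. Only 10.6% of the 132 held 1 peak of each library, against 79.1% of the others. Strength was not compared at equal width. Of the 25 strongest regions, 20 spanned a TSS, as did 39 of the next 75 and 60 of the next 400, but only 3 of the 1697 ranked below 1000. Of the 132, 23 covered their whole gene and 34 at least 50% of it. Regions of at least 2 kb made up 10.01%, against 6.05% of promoter and 6.57% of distal regions. The centre of a broad region is not its summit, and 262 of the 2697 regions (9.71%) had their library 1 summit at most 1 kb from a TSS. They included the TSS-spanning regions, named below, at Atf3 (18 bp), Slc15a3 (37 bp), Runx1 (42 bp), Sgk1 (192 bp), Plet1 (284 bp) and Plin2 (601 bp). Those at Spi1 (602 bp), Fosl2 (686 bp), Bcl2l11 (717 bp), Abcg1 (854 bp) and Tnfrsf1a (893 bp) were also among them. The library 1 value of each is that of the peak with this summit. In 89 other regions (3.30%) the library 1 summit lay over 3 kb from any TSS. Measured from the TSS nearest to the region's centre, the summit lay 6577 bp away for Mascrna, 4477 bp for Fos and 3431 bp for A630001O12Rik.

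Of the 12 strongest regions, those at Fos and Sgk1 and at noncoding RNAs were among the broadest. The first, chr19:5792640-5804340, spanned Malat1, a long nuclear RNA, and the TSS of Mascrna, the small RNA cut from its end, with fold enrichments of 26.95 and 21.5 in libraries 1 and 2. The region at chr12:85471264-85481345 covered Fos, a subunit of AP-1, over 10082 bp with 28.4 and 17.6. Sgk1, a serum- and glucocorticoid-induced kinase, had 25.2 and 17.1 over 12630 bp. Mir21a, the gene of a microRNA abundant in macrophages, had 23.1 and 17.9. Gsap, which encodes a γ-secretase activating protein, had 26.7 and 19.9 at chr5:21185684-21190237.

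The region at Kcna3, a voltage-gated potassium channel, had 23.4 and 17.6 and that at Slc15a3, a lysosomal peptide and histidine transporter, 24.6 and 16.8. The region at Atp13a3, a polyamine transporter, had 21.6 and 20.7 at chr16:30388701-30391090 and did not span a TSS, nor did that of Mir7681, with 24.0 and 19.3. The region at Nat9 had 23.7 and 16.5 and ran from −3267 to 1025 bp relative to the Nat9 TSS, which it spanned. Its centre lay in an intron of the neighboring Tmem104. The long noncoding RNA gene A630001O12Rik had 21.0 and 15.4.

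At the edges of the distance rule, values were close on both sides. The 262 regions centred between 900 and 1000 bp from a TSS had median fold enrichments of 5.92 and 5.35, and the 278 between 1000 and 1100 bp had 6.22 and 5.35. The 95 regions between 2900 and 3000 bp had 5.92 and 5.07, and the 83 between 3000 and 3100 bp had 6.12 and 5.35.

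Base composition separated these regions from promoter regions. CpG islands, stretches rich in unmethylated CpG, mark most promoters of broadly used genes. A window of 100 bases on each side of the library 1 summit was called CpG-rich at a GC content of at least 50% and an observed to expected CpG ratio of at least 0.6. That held for 124 of the 2697 regions (4.60%, 3.87 to 5.45%), 39.0% of promoter regions and 1.26% of distal regions. The differences were −34.4 points (−35.9 to −32.8) and 3.33 points (2.57 to 4.21). The median GC content was 43.3%, against 51.7% at promoter and 43.8% at distal summits. On the TSS side, 1 kb from the summit, 32.0% of the windows were CpG-rich, and 1 kb away on the far side 2.34% were. CpG-rich summits were common among regions spanning a TSS, at 26.5% (35 of 132) against 3.47% of the others, a difference of 23.1 points (16.2 to 31.2). Upstream and downstream regions had 4.90 and 4.44%, a difference of 0.45 points whose interval (−1.16 to 2.27) included 0. Soft-masked repeats made up most of the window in 7.49% of the regions, 2.05% of promoter and 8.47% of distal regions.

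Motifs of some macrophage factors were concentrated at the summits of these regions. Over 22 patterns searched on both strands, PU.1, C/EBP, AP-1 and FOX motifs were more frequent within 100 bases of the summit than in the window of the same size 1 kb farther from the TSS (two-sided exact McNemar tests over regions, Benjamini-Hochberg adjusted over the 22). The PU.1 motif stood in 143 summit windows (5.30%) against 38 flank windows (1.41%), with an adjusted p of 1.52e-14. The C/EBP motif stood in 402 (14.9%) against 222 (8.23%), with an adjusted p of 1.85e-13. AP-1 was found in 234 (8.68%) against 156 (5.78%), with an adjusted p of 3.57e-04, and the forkhead motif TGTTTAC in 103 (3.82%) against 62 (2.30%), with an adjusted p of 0.00734. The last ratio of 1.66 fell to 1.08 in library 2 alone, and with the library 2 summit, a fold enrichment of 5 or more or a window of 50 bases on each side it also missed the threshold. The motifs of RUNX (193 summit against 174 flank windows), IRF (206 against 177), STAT (172 against 161) and NF-κB (22 against 23) were not called. The flank lay wholly inside the region in 239 cases. None of the 22 motifs was called less frequent at the summit, nor was any at an unadjusted p under 0.05.

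The elements of the receptor itself were not called more frequent at the summit than in the far flank. A single hexamer AGGTCA or GGGTCA stood in 562 summit windows (20.8%) and 532 flank windows (19.7%), with an adjusted p of 0.488 by the exact McNemar test. An exact DR1 stood in 2 of each. A DR1 with 1 mismatch allowed stood in 35 (1.298%) against 26 (0.96%), with an adjusted p of 0.488, and a DR4, the repeat with a spacer of 4 bases that LXR and RXR prefer, with 1 mismatch in 14 against 20, with an adjusted p of 0.488. At this number of matches a modest difference could not have been detected. Within 20 bp of the summit 9 matches to the DR1 with 1 mismatch were centred. The next bins, at 20 to 60 bp on each side, held 4 and 10, and the outermost, at 260 to 300 bp, held 3 and 7. Against the flank on the TSS side, which was far richer in CpG, 8 motifs were more frequent at the summit, RUNX, the hexamer and the DR1 with 1 mismatch among them. The ratio for the KLF/SP motif there was 0.25, with an adjusted p of 4.73e-41 by the exact McNemar test, against 1.49 with the far flank.

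The PU.1 match was the most sharply placed. In bins of 40 bp, 41 matches were centred within 20 bp of the summit. The next bins, at 20 to 60 bp on each side, held 27 and 41, and the outermost, at 260 to 300 bp, held 7 and 14. C/EBP matches numbered 96 within 20 bp and 42 and 54 in the outermost bins, and AP-1 matches 60 against 33 and 34.

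Compared with promoter regions, the 2697 regions had more of several macrophage motifs and fewer of the promoter motifs. Shares of 6 motifs were higher and of 6 lower, by intervals of the difference that left out 0. C/EBP was 4.63 points higher (3.08 to 6.24), RUNX, TGTGGTT, 2.88 points (1.79 to 4.04), AP-1 1.998 points (0.76 to 3.30), FOX 1.495 points (0.70 to 2.37), PU.1 1.10 points (0.13 to 2.15) and DR1 with 1 mismatch 0.48 points (0.02 to 1.02). The PU.1 difference was −0.16 points (−0.86 to 0.57) among library 2 peaks and its interval also included 0 among library 1 peaks, with the library 2 summit, with windows of 50 bases on each side and with summits within 100 bp. The FOX difference was 0.72 points (−0.33 to 1.94) with 5-fold enrichment or more in each library. That of DR1 had an interval including 0 there too, and in either library alone, with the library 2 summit, with the smaller windows and without the regions spanning a TSS. KLF/SP was 15.3 points lower, at 3.49% against 18.8%. The ETS promoter motif CCGGAAGT was 3.56 points lower, the E-box CACGTG 3.44 points, CREB, TGACGTCA, 1.66 points, YY1, AAGATGGCG, 1.18 points and NRF1, GCGCATGCG, 1.12 points.

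Compared with distal regions, 7 motifs were less frequent, PU.1, C/EBP, AP-1 and RUNX among them. The hexamer was 4.57 points lower (20.8% against 25.4%), AP-1 2.95 points (8.68% against 11.6%), PU.1 2.95 points (5.30% against 8.25%), RUNX 2.59 points, C/EBP 2.25 points, the STAT motif TTCNNNGAA 1.43 points and DR1 with 1 mismatch 0.64 points, whereas KLF/SP was 1.60 points higher. For FOX the difference was 0.15 points, with an interval (−0.59 to 1.01) that included 0. The C/EBP interval included 0 with 5-fold enrichment or more in each library and with summits within 100 bp, and that of DR1 when distance was taken from the summit, with windows of 50 bases on each side and among library 1 peaks. At least 1 of PU.1, C/EBP, AP-1 and RUNX stood at 849 summits (31.5%), between the 22.9% of promoter regions and the 39.5% of distal regions. Over all 20233 regions, the shares were 6.83% for PU.1, 15.1% for C/EBP, 9.98% for AP-1, 8.02% for RUNX, 6.38% for KLF/SP, 3.35% for FOX, 23.3% for the hexamer and 1.57% for DR1 with 1 mismatch. The hexamer is part of the DR1 and DR4, and a match to any of these letters is a description of the sequence and not a site.

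**Figure D3:**
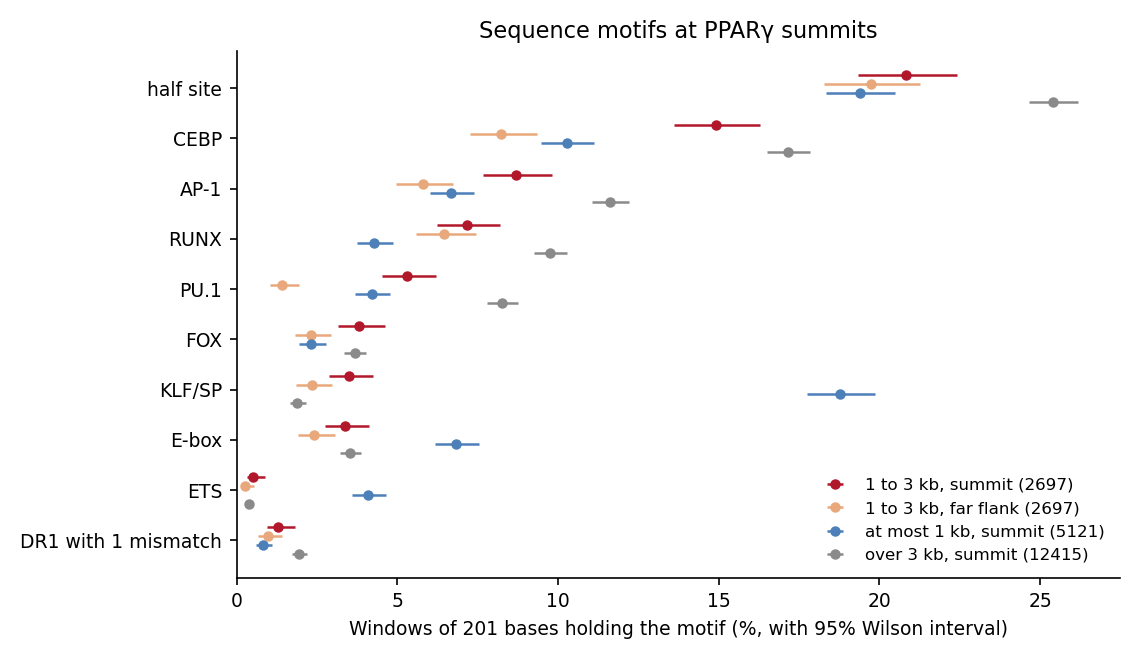
Share of windows, of 100 bases on each side, that hold each of 10 motifs (x, percent, with 95% Wilson intervals) at the summits of the 2697 regions 1 to 3 kb from a TSS, in their flank 1 kb farther from the TSS, and at the summits of promoter and distal regions. The red points lie between the blue and grey ones for C/EBP, AP-1, RUNX and PU.1, and far left of the blue ones for KLF/SP and ETS.

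Within the 2697 regions, some motifs went with strength. In the upper 1321 regions by strength, PU.1 was held by 7.27% against 3.42% of the lower 1376 (difference 3.85 points, 2.17 to 5.59), C/EBP by 18.2% against 11.8% (6.39 points, 3.71 to 9.09), AP-1 by 10.1% against 7.34% (2.73 points, 0.60 to 4.88) and KLF/SP by 4.84% against 2.18% (2.66 points, 1.28 to 4.11). The hexamer differed by 3.52 points (0.45 to 6.59) and CREB by 0.61 points (0.10 to 1.25), whereas RUNX, at 7.34% against 6.98%, and FOX, at 3.63% against 3.997%, had intervals that included 0. The AP-1 difference was 1.96 points without the regions spanning a TSS and 1.62 points in library 2 alone, and that of PU.1 was 2.75 points (−0.11 to 5.66) with 5-fold enrichment or more in each library, all with intervals that included 0. Regions spanning a TSS held KLF/SP in 14.4% and C/EBP in 22.7%, against 2.92% and 14.5% of the others. Upstream regions held RUNX in 8.596% against 6.41% downstream, and DR1 with 1 mismatch in 1.96% against 0.96%. Of 22 motifs these were the only 2 whose interval for the sides left out 0, without adjustment over the 22. Regions at 1 to 2 kb held KLF/SP in 4.14% and a CpG-rich window in 5.51%, against 2.30 and 2.93% at 2 to 3 kb.

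The regions belonged to 1871 of 21000 protein-coding genes by nearest TSS, 8.91% of all. A promoter region was found at 3893 genes, or 18.5%. Of the 1871 genes, 1118 (59.8%) also had a promoter region, which is 28.7% of the genes with a promoter region, and for 363 all regions of the gene lay 1 to 3 kb from a TSS. Most genes, 1419, had 1 such region, 355 had 2, 82 had 3 and 15 had 4. The nearest TSS belonged to a protein-coding gene for 2435 regions, to a long noncoding RNA for 200 and to a microRNA for 42. For 312 regions (11.6%) TSSs of 2 or more genes lay within 3 kb of the centre, so that the nearest gene is one of several.

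The gene lists differed widely in how many genes had a region 1 to 3 kb from a TSS. The highest share was that of AM genes, 27 of 39 (69.2%, 53.6 to 81.4%), followed by macrophage transcription factors, 27 of 47 (57.4%), receptors for niche signals, 16 of 30 (53.3%), and lysosomal genes, 17 of 32 (53.1%). PPAR targets and fatty acid metabolism had 20 of 52 (38.5%), cholesterol handling 11 of 32 (34.4%), innate sensing and phagocytosis 10 of 32 (31.2%), and cell death and cell cycle 7 of 30 each (23.3%). The background of all genes was 8.91%. Neuronal genes had 0 of 22, with an upper limit of 14.9% by the Wilson interval. For promoter regions, against 18.5% of all genes, the shares were 56.4% for AM genes (22 of 39), 55.8% for PPAR targets (29 of 52) and 68.8% for innate sensing (22 of 32). Of AM genes, 38 of 39 had a region at any distance, against 29.6% of all protein-coding genes. Without the regions spanning a TSS, macrophage transcription factors had 46.8% and AM genes 64.1%. Median fold enrichments in libraries 1 and 2 were 6.52 and 5.91 for the regions of AM genes, 7.11 and 6.05 for transcription factors and 7.11 and 5.63 for PPAR targets, against 6.22 and 5.35 for all 2697. Among the lists with 10 or more regions, library 1 medians ran from 5.63 for innate sensing to 8.47 for cell death. In library 2 they ran from 4.79 for cholesterol handling and receptors for niche signals to 7.31 for cell death.

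**Figure D4:**
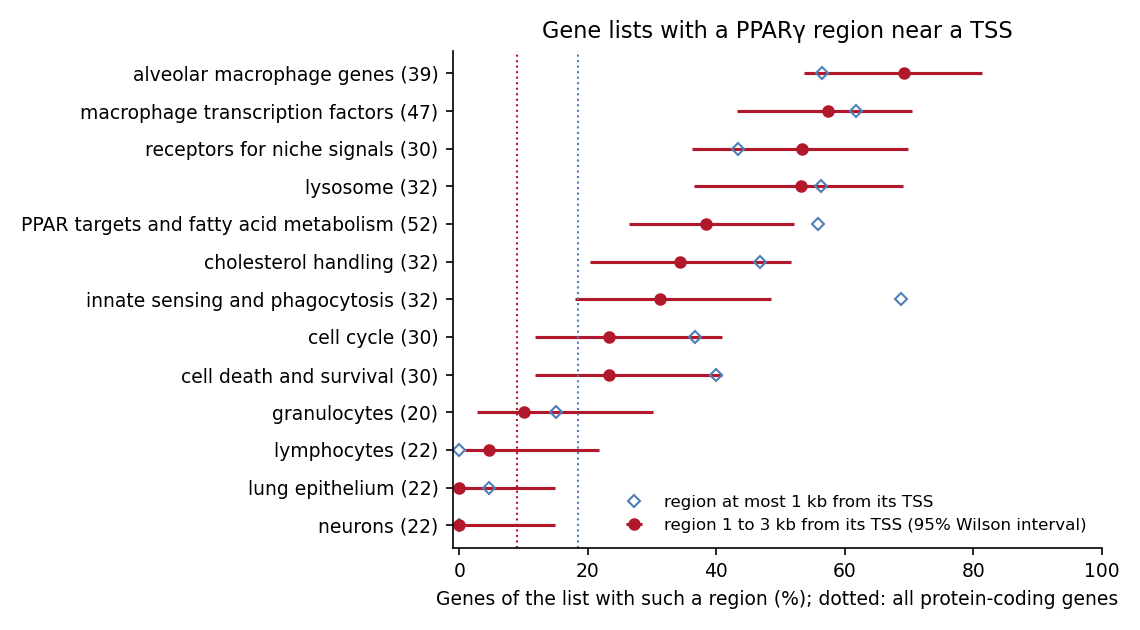
Share of the genes of each list (number of genes in brackets) that were the nearest gene of a region 1 to 3 kb from a TSS (red, with 95% Wilson intervals) or at most 1 kb from it (open diamonds). Dotted lines mark all protein-coding genes at 8.91 and 18.5%, and the red points run from 0% for neurons and lung epithelium to 69.2% for AM genes.

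Among AM genes, the strongest region was that of Chil3, which encodes the chitinase-like protein Ym1, at chr3:106166628-106173320, with 20.7 in library 1 and 14.0 in library 2. It ran over the TSS, with a C/EBP motif under its summit 5114 bp upstream. Siglecf, a lectin by which AMs are commonly sorted, had 3 regions, of which that 1919 bp downstream, at chr7:43352850-43353669, had 13.3 and 8.98 and the other 2 had at most 3.84 and 5.48. Plet1, an epithelial progenitor antigen also carried by AMs, had regions with 15.1 and 14.8 upstream and 13.9 and 11.5 over its TSS. Car4, a membrane carbonic anhydrase, had regions 1244 and 2156 bp downstream in its first intron with 6.48 and 5.91 and with 6.52 and 5.63. Cd63, a tetraspanin, had no region at any distance. Cd9, another tetraspanin, had 33 regions, all of them distal by their centre. A broad one, centred at 3848 bp, ran from −1538 to 9234 bp relative to the TSS and so covered it. Cdh1 and Fabp5 had distal regions only, 3 and 4.

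Genes of lipid storage and fatty acid use carried several of the regions. Plin2, the coat protein of lipid droplets, had 1 region of 10067 bp, chr4:86663451-86673517, that covered its TSS and had 18.1 and 15.1. Cidec, a lipid droplet fusion protein and a known PPARγ target, had a region 2716 bp upstream with 12.4 and 11.2 and one 2110 bp downstream with 8.29 and 7.31. Of the neighboring uncoupling protein genes, Ucp2 had a region over its TSS with 16.3 and 10.7 and one upstream with 3.23 and 4.24. Ucp3 had 3 narrow regions at this distance, with 5.92 to 8.59 in library 1 and 4.79 to 6.47 in library 2, and its region over the TSS was centred 337 bp from it and so counted as a promoter region. Lpin1, a phosphatidate phosphatase, had 13.9 and 7.87 over its TSS. Fabp4, a fatty acid binding protein and classical PPARγ target, had regions 1283 and 2057 bp downstream in its first intron, with 5.04 and 3.87 and with 4.74 and 6.75. Cd36, a fatty acid and oxidized lipid receptor, had 4, all in first introns, and all were weak, at 2.96 to 5.04 and 4.24 to 5.07. Beside these it had 14 distal regions and 1 promoter region, which ran from −747 to 2616 bp relative to its TSS.

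Angptl4, a secreted inhibitor of lipoprotein lipase and a PPAR target, was unequal between the libraries. Its region at chr17:33778719-33781283, centred 1574 bp downstream in an intron, had 8.87 in library 1 and 19.0 in library 2. It was 1 of 32 regions (1.19%) whose value in library 2 was at least 2 times that in library 1. The enzymes of fatty acid oxidation varied. Cpt1a, Cpt2, Hadha and Ech1 had such regions, the strongest with 10.7 and 4.79 at Cpt1a, the carnitine palmitoyltransferase that admits fatty acids to mitochondria, and these 4 were named after their values were seen. Of those named because they had no region at this distance, Acadl and Acadm had promoter regions only (2 and 1), and Acadvl had none at all. Pdk4, a PPAR target that restrains glucose oxidation, had 2 distal regions and none nearer.

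In cholesterol handling, the export pump gene Abcg1 had a region of 5319 bp over its TSS, chr17:31057608-31062926, with 13.9 and 10.1, and a weak one upstream with 3.23 in each library. Abca1, the other export pump, had a region 2085 bp downstream in its first intron with 7.998 and 5.35. Soat1, which esterifies cholesterol, had 15.1 and 9.26 in its first intron and Mylip, which degrades the LDL receptor, 11.6 and 9.26. Lipa, the lysosomal acid lipase, had regions with 7.998 and 7.87 and with 5.28 and 4.52. Apoc1 and Cyp27a1 had no region at any distance, and Apoe had 1 promoter region.

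Among the 47 listed macrophage transcription factors, the genes with the 4 strongest regions were Fos, Junb, Fosl2 and Atf3, all of the AP-1 superfamily. Beside Fos, Junb had 20.4 and 18.2 over a region of 6106 bp, Fosl2 20.7 and 12.6 over 6578 bp, with an AP-1 motif at the summit, and Atf3 19.8 and 12.1 over 4002 bp. Each of these spanned a TSS. Of the factors of macrophage identity, Runx1 had 14.8 and 10.1 over a TSS and 7.998 and 5.63 upstream, and Spi1, which encodes PU.1, had 10.7 and 8.98 at chr2:91082164-91085735, also over a TSS. Cebpb had a narrow region of 236 bp, 2918 bp upstream, with 3.85 and 3.96, beside 1 promoter region from −2411 to 646 bp relative to its TSS. Pparg had 1 region, chr6:115363350-115365494, centred 2073 bp downstream of a TSS in its first intron, with 6.81 and 7.59, beside 2 promoter regions and 9 distal ones. Rxra had 4 distal regions and none within 3 kb. Bhlhe41 had 1 promoter and 5 distal regions, Bach1 2 and 5, Elf1 3 and 6, and Bhlhe40 had no region assigned to it. The promoter region of Bhlhe41 ran from −1798 to 1929 bp relative to its TSS.

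The regions at receptors for niche signals had median fold enrichments of 5.92 and 4.79 in libraries 1 and 2. Il6ra, of the IL-6 receptor, had 16.9 and 9.54 in its first intron and Tnfrsf1a, of the TNF receptor, 10.7 and 5.57 over a TSS. The GM-CSF receptor genes each had 1 region upstream, at 1982 bp for Csf2rb with 6.51 and 5.91 and at 2058 bp for Csf2ra with 4.44 and 4.52. The TGFβ receptor genes had their strongest one in the first intron, Tgfbr1 with 6.22 and 5.91 at 1576 bp, beside a weaker one farther in and one upstream, and Tgfbr2 with 6.22 and 6.19 at 1711 bp. Acvrl1 had distal regions only, and Bmpr1a, Bmpr2 and Csf2rb2 had none at any distance. Csf2rb2 is a near copy of Csf2rb, so reads that fit both could have been discarded as poorly mapped. This was not tested, and both genes are uncertain.

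**Figure D5:**
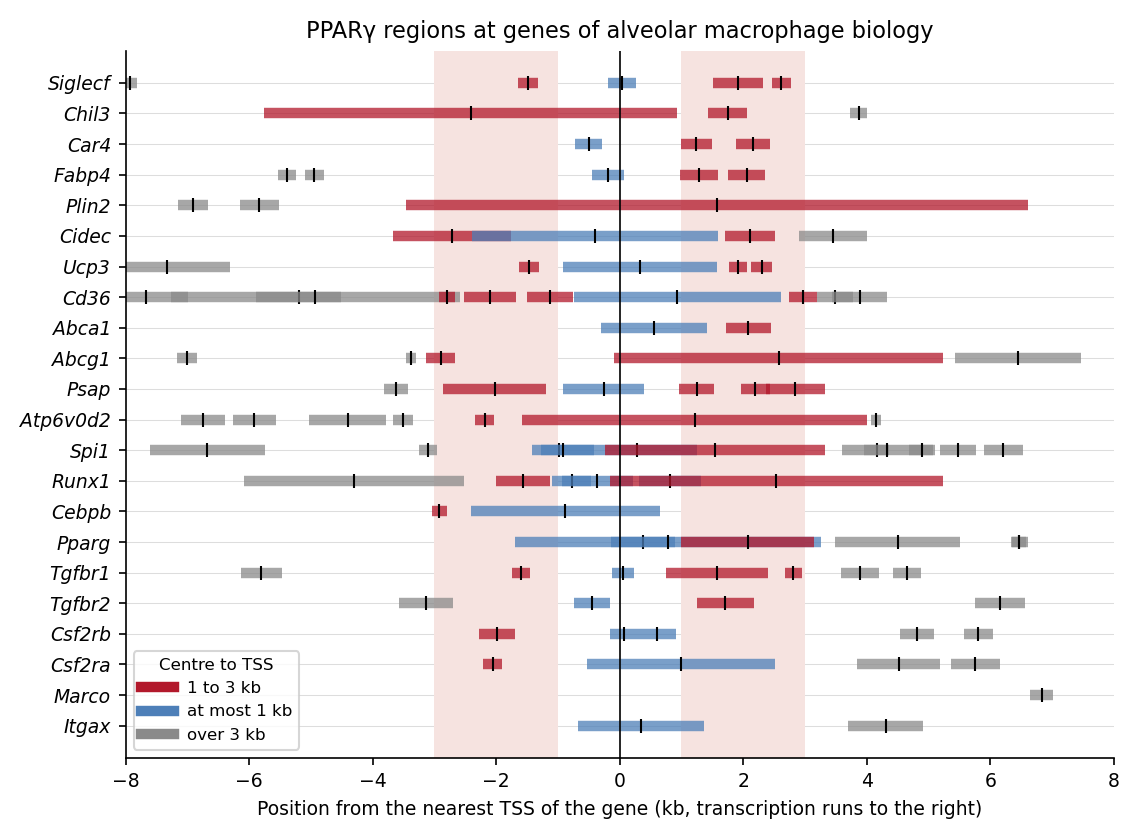
PPARγ regions found in both libraries at 22 genes, drawn as bars from start to end with a tick at the centre, by position from the nearest TSS of the gene (x, kb, with transcription running to the right). Bars of a gene with several TSSs are each placed by their own nearest TSS and can overlap, and the shaded bands are the 1 to 3 kb ranges. Chil3, Plin2, Abcg1, Atp6v0d2, Spi1 and Runx1 have a red bar that crosses 0, and Marco and Itgax have no red bar.

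The lysosomal genes held 28 regions, with medians of 6.07 and 5.35 in libraries 1 and 2. Atp6v0d2, a proton pump subunit, had a region over its TSS with 17.4 and 11.5. The library 1 summit, with an AP-1 motif, lay 3464 bp downstream of that TSS. Ctsz, a cathepsin, had 12.4 and 11.8 and Grn, of progranulin, 10.4 and 7.03. Psap, of the saposin precursor, was among the 15 genes with 4 regions, with a strongest value of 11.6 and 10.1 upstream of an internal TSS. The others with 4 included Actb, Creb5, Gpr146 and Lcor. Of the Fc receptor genes, Fcgr4 had 8.35 and 7.31 in its strongest region, Fcer1g 7.11 and 6.47 and Fcgr2b 5.91 and 7.03. Axl, Clec4d, Clec4n and Clec7a, receptors of dying cells and of fungal sugars, had promoter and distal regions only, and so had Tlr2, a sensor of bacterial lipoproteins. This holds for the centres, since broad promoter regions reached into the 1 to 3 kb range. Relative to the TSS they ran from −4100 to 4452 bp at Tlr2 and −3116 to 2017 bp at Clec4d. At Clec4n the range was −2806 to 3349 bp and at Clec7a −2777 to 2392 bp.

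Of the cell death genes, Casp8, the initiator caspase of death receptors, had 3 regions, the strongest with 16.9 and 14.8 at chr1:58796859-58798718 in its first intron. Bcl2a1b, a survival gene, had 3, the strongest with 11.8 and 9.82. It is 1 of several near-identical copies, so this assignment is uncertain. Bcl2l11, of the killer protein BIM, had 10.7 and 9.54 over a TSS and Bbc3, of PUMA, 9.77 and 9.82. Apaf1 and Bax had no region and Bad and Bak1 1 distal region each. Of the cell cycle genes, the inhibitor gene Cdkn1a had 14.2 and 5.93 over its TSS and Cdkn1b 3 regions of 5.63 to 7.41 and 4.24 to 7.59. The cyclin gene Ccnd3 had 8.59 and 8.42, and the region nearest to Tk1, with 10.96 and 11.5, lay in an intron of the neighboring Afmid. Of the genes of other cells, Ms4a1 had 5.05 and 9.26, S100a8 11.3 and 5.07 and Cxcr2 5.33 and 4.79.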

How the data were processed

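Peaks of the 2 PPARγ ChIP libraries were analysed. The submitters' processing notes name MACS3, SAMtools, Bowtie2, cutadapt, CASAVA and bcl2fastq 2.20.0.422, with mm10 as the build. By the study's methods, the authors discarded duplicate reads and those that mapped poorly or were not properly paired, and called peaks for each library by itself at a q of 0.05, with input as control. The deposited peak lists give the fold enrichment (a linear ratio), −log10 of the p-value and q-value, a score derived from the q-value, and the summit. Fold enrichment was used for values, strength and one filter, and q for another.

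Peaks were merged and placed by the RefSeq annotation of GRCm38.p6 (45756 curated transcripts on 31601 TSS positions) with Python 3.11.15, numpy 2.4.6, pandas 2.3.3, scipy 1.17.1, pysam 0.24.0, samtools 1.23.1 and matplotlib 3.10.9. Shares carry 95% Wilson intervals and differences of shares Newcombe intervals, which cover counting error only. Motifs were fixed letters and not weight matrices. The statistics were tested on simulated data. Fold changes between libraries were not tested, since the lists hold no counts.

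Named genes were the 12 strongest regions, 5 genes with most regions, up to 4 strongest of each of 13 lists (410 of 411 entries matched a gene), up to 4 alphabetically first without one, and 26 others whatever their values. Some genes chosen by this rule are not reported here. The regions and lists were chosen with earlier results of these data known. Alternatives were stricter peaks, other overlaps, TSSs, distances, windows and flanks, each library alone, and, added after the data were seen, the regions that span no TSS.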

Additional observations from a re-analysis of the deposited data

How the results depend on the processing

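Of 108 comparisons of the main results with an alternative, 89 kept their direction and their side of the threshold or stayed within 1.5 times (counts) or the interval (shares). Peaks enriched 5-fold or more left 1313 regions at 1029 protein-coding genes, with 68.0% downstream and 9.67% spanning a TSS, and under it the strength against promoter regions (−0.18 points) and the shared library 1 peaks against promoter (−0.35) and distal peaks (1.28) lost their call. Requiring any pair of summits, 1 of each library, within 100 bp left 1451 regions at 1134 genes, 63.5% of them downstream. Leaving out one library or the other gave 4078 to 11514 regions at 2429 to 5319 genes, 60.8 to 63.9% downstream, 0.78 to 1.67% spanning a TSS, and strength against distal regions of −2.35 to 0.47 points, where library 1 alone turned it positive. With the flank on the TSS side, 8 motifs instead of 4 were more frequent at the summit.

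Among single values with one library left out, reversals were PU.1 against promoter regions (−0.16 to 0.21 points, negative in library 2 alone) and, in library 1 alone, the share within 1 kb of another region against promoter regions (−2.02 to 7.90 points) and the summit-to-flank ratios of RUNX (0.97 to 1.096) and the hexamer (0.98 to 1.07). KLF/SP reversed with the TSS-side flank (0.25). The cause was not tested. No paired analysis was possible because peaks of only 1 group, the ChIP libraries, were analysed here. Depth, absent from the peak lists, was not used here, and 1 group of 2 libraries gives no estimate of variation between animals.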

Other observations

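Regions 1 to 3 kb from the TSS of a noncoding RNA gene ranked high in some cases. Beside Mir21a and Mir7681, the regions at Mir22hg, the host gene of a microRNA, had fold enrichments of 17.8 and 10.1 in libraries 1 and 2. Chromosome X held 30 of the 2697 regions (1.11%) and 163 of all 20233 (0.81%). In library 1 the 2697 regions took 332 distinct fold enrichments and in library 2 333, so many regions are tied in rank. Library 2 gave the higher value in 895 of the 2697 regions (33.2%).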
